A study of Mus musculus with 3 samples.

Results

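The 5 homeobox genes Otx1, Otx2, Gsc, Gbx1 and Gbx2 were followed in single-cell RNA sequencing libraries of mouse otic vesicles taken at E10.5, a day of embryonic development. They are 5 of the 32285 features counted in each library, chosen by symbol. The CD group is 1 library from embryos heterozygous for the Sox9 allele Y440X, and the WT group is 2 wild-type libraries. Vesicles were pooled before dissociation, so a library is a pool of embryos. The labels do not say that the WT pools came from separate litters. A p-value rests on the spread between these few libraries and on variance shared across genes, and does not measure the spread between embryos. The CD group has 1 library, which was assumed to vary like WT.

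Otic cells were those with at least 1000 genes, at most 10% mitochondrial UMIs (unique molecular identifiers, 1 per captured transcript), at least 1 UMI of Epcam, an epithelial adhesion molecule, and at least 2 UMIs in sum of the otic genes Fbxo2, Hmx2, Hmx3 and Pax2. This gave 2778 cells in CD, against 2537 and 4083 cells in WT replicates 1 and 2. Mesenchyme cells had at least 2 UMIs of Prrx1 and Twist1 in sum and no Epcam, and numbered 1860 in CD and 1083 and 2508 in WT. The libraries held 186439890 UMIs in CD and 157373393 and 202584468 UMIs in WT, and otic cells had a median of 22616.5 UMIs in CD and of 25431 and 18752 UMIs in WT. The otic label held against a marker that the gate did not use: Oc90, an otoconial protein gene, stood at 81.1 CPM (UMIs of the gene per 1000000 UMIs of the cell set) in otic and 1.66 in mesenchyme cells of CD, at 527 and 8.14 in WT replicate 1, and at 981 and 36.3 in WT replicate 2. Mixed barcodes occur, since 199 otic cells of CD and 107 and 574 of WT also had at least 2 UMIs of the mesenchyme genes. Sox9 itself was counted at 688 CPM in otic cells of CD and at 409 and 338 in WT (log2 difference 0.83, SE 0.15, edgeR adjusted p = 0.125). It passed in otic cells positive for Tbx1 (0.81, edgeR adjusted p = 0.0343) or Gbx2 (0.89, edgeR adjusted p = 0.0397). In those positive for Otx1 it did not (0.75, edgeR adjusted p = 0.0515). With called doublets left out, 0 genes were called higher in Tbx1-positive cells, Sox9 included. These counts do not separate the mutant from the normal allele.

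Homeobox genes encode transcription factors that bind DNA through a homeodomain and give regions of an embryo their identity. In the neural tube, Otx2 in front and Gbx2 behind exclude each other at the border of midbrain and hindbrain. In the mouse ear, Otx1 is needed for the lateral semicircular canal, Otx2 is known from the ventral and lateral wall of the otocyst, and Gbx2 is needed for dorsal structures, the endolymphatic duct among them. Gsc (goosecoid) is known from the gastrula organiser and from the skeleton around the middle ear, and Gbx1 from the spinal cord.

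The 5 genes fall into 2 kinds by 1 codon in the part of the homeobox that encodes the DNA-reading helix. Otx1, Otx2 and Gsc share 1 form. These genes were also detected together more often than their single shares give, and a link of the codon to this was not tested. The coding bases of homeodomain codons 42 to 58 are shown with codon 50 in capitals, as found in the GENCODE M21 transcripts.
Otx1: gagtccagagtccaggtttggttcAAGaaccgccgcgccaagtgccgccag
Otx2: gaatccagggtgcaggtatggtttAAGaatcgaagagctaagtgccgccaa
Gsc: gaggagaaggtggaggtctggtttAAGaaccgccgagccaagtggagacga
Gbx1: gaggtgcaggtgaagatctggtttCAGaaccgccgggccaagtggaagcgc
Gbx2: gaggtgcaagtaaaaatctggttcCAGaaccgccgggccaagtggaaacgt
Otx1 (chromosome 11), Otx2 (chromosome 14) and Gsc (chromosome 12) carry AAG, a lysine codon, and Gbx1 (chromosome 5) and Gbx2 (chromosome 1) carry CAG, a glutamine codon. Over the 180 bases of the homeobox, Otx1 and Otx2 were identical at 80% of positions and Gbx1 and Gbx2 at 84.4%. Gsc was identical to Otx1 at 64.4%, to Otx2 at 61.1% and to Gbx2 at 60.6%, while Otx2 and Gbx2 shared 46.7%. Over the 51 bases shown, codon 50 included, Gsc was nearer to the Gbx genes, at 82.4% to Gbx1 and 76.5% to Gbx2 against 70.6% to Otx1 and to Otx2.

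Otx1, Otx2, Gsc and Gbx2 were otic genes in all 3 libraries, and Gbx1 was not. Otx1 stood at 35.4 CPM in otic and 0.590 in mesenchyme cells of CD, at 33.8 and 0.616 in WT replicate 1, and at 29.4 and 1.20 in WT replicate 2. Gbx2 stood at 46.7 CPM in otic and 0.885 in mesenchyme cells of CD, at 35.3 and 0.704 in WT replicate 1, and at 25.4 and 1.05 in WT replicate 2. The otic values of both genes lay far above every mesenchyme value. The edgeR quasi-likelihood test on UMIs summed per library and class, with library as a block, gave higher otic levels for Otx1 (log2 fold change 5.15, SE 0.21, adjusted p = 1.58e-05) and Gbx2 (5.14, SE 0.19, adjusted p = 1.24e-05).

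Gsc stood at 10.3 CPM in otic and 1.23 in mesenchyme cells of CD, at 15.2 and 0.616 in WT replicate 1, and at 17.1 and 1.54 in WT replicate 2 (3.44 on the log2 scale, SE 0.23, edgeR adjusted p = 7.23e-05). Otx2 stood at 19.97 CPM in otic and 0.483 in mesenchyme cells of CD, at 36.7 and 6.11 in WT replicate 1, and at 42.2 and 1.69 in WT replicate 2 (3.74, SE 0.43, edgeR adjusted p = 5.69e-04). Mesenchyme of WT replicate 1 thus had 16.7% of the otic Otx2 level, against 2.42% in CD and 4.01% in WT replicate 2. Of the 1083 mesenchyme cells in WT replicate 1, 13 had 5 or more Otx2 UMIs, against 1 in CD and 2 in WT replicate 2. Of those 13 cells, 12 had ciliated-cell genes by a first list, with Colec12, and 8 by a second, with Deup1. Without cells on the first list the log2 fold change was 5.22, and without those on the second 4.55. Gbx1 was counted at 10 UMIs in otic cells of CD and at 10 and 6 UMIs in WT, that is 0.141 CPM in CD and 0.135 and 0.0674 in WT. In mesenchyme cells it was also low, at 0.268 CPM in CD and 0.572 and 0.319 in WT. It was lower in otic than in mesenchyme cells (-1.85, SE 0.41, edgeR adjusted p = 0.00887), a call that rests on few UMIs in both classes. All 5 genes passed, in a comparison where 62.4% of 16748 genes did. The otic genes are the 4 that were higher (32.6% of genes were called higher).

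In the other named classes with at least 20 cells in every library Otx1, Gsc and Gbx1 were low, and Otx2 was uneven between libraries. The neural tube class, with 56 cells in CD and 110 and 4 in WT, did not reach that size. Gbx1 stood at 1.16 CPM in neuroblasts and neurons of CD and at 1.30 and 0.191 in WT, above its otic level in each library. Otx2 stood at 0.740 CPM in neuroblasts and neurons of CD and at 9.25 and 4.01 in WT, and at 2.25 CPM in neural crest and glia of CD and at 0 and 10.8 in WT. The last value rests on 28 UMIs in 5 of 130 cells. Cells that met the marker rule of no class also carried the genes: Otx2 stood there at 20.2 CPM in CD and at 66.7 and 34.3 in WT, and Otx1 at 20.7 in CD and at 21.3 and 17.7 in WT. In neuroblasts and neurons Gbx2 stood at 3.54 CPM in CD and at 2.74 and 1.97 in WT, and Otx1 at 1.27 in CD and 2.19 and 3.50 in WT. In endothelium and erythroid cells Otx1 and Gsc were at or under 0.754 CPM in each library. Erythroid cells, which should lack these genes, had 1.20 CPM of Gbx2 in CD and 0.640 and 1.09 in WT, close to the mesenchyme values. Barcodes that met the rules of several classes had 9.49 CPM of Gbx2 in CD and 4.97 and 2.79 in WT. Crx, the photoreceptor relative of the Otx genes, was nearly absent from otic cells: it was at 0 in CD and WT replicate 2 and at 0.0135 CPM in WT replicate 1. Otx2os1, an RNA transcribed antisense to Otx2, had 5 UMIs in otic cells of CD and 8 and 37 in WT; the strand setting of the counting is not given in the sources used here.

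**Figure D1:**
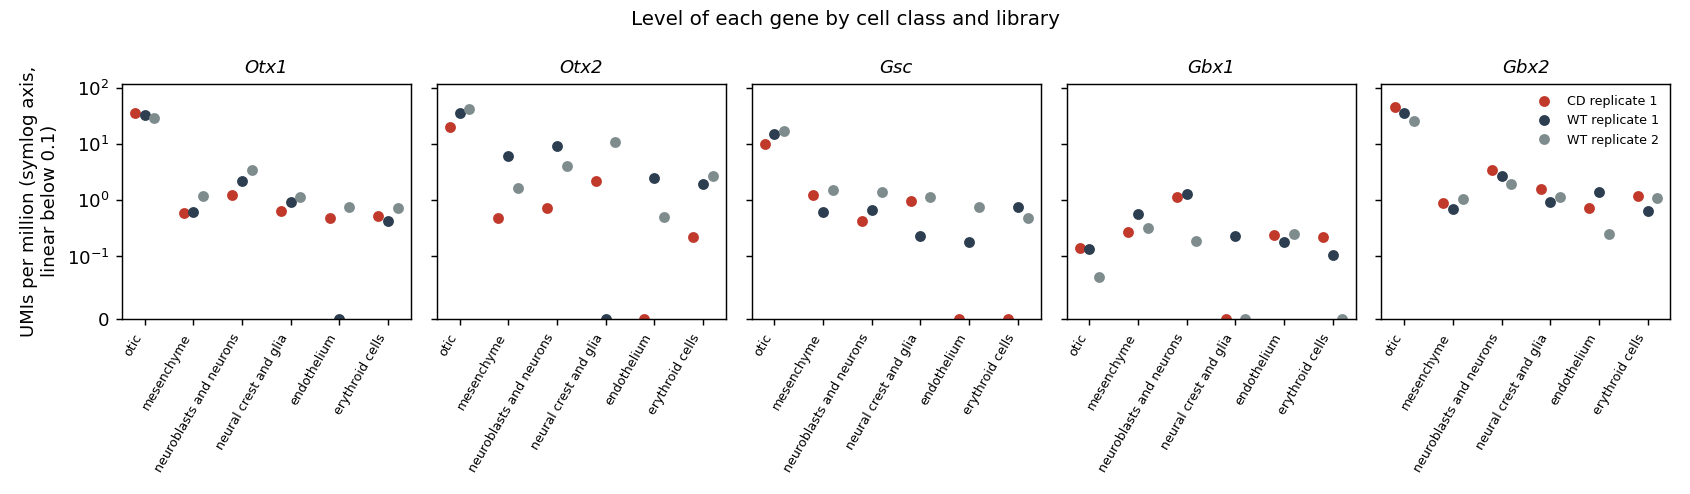
Levels of the 5 genes in 6 cell classes, in CPM on a symlog axis that is linear below 0.1, with 1 point per library (CD red, WT replicate 1 dark, WT replicate 2 grey). Among the 6 classes Otx1, Otx2, Gsc and Gbx2 were highest in otic cells of each library, Gbx1 was near 0 there, and Otx2 reached 6.11 CPM in mesenchyme and 9.25 in neuroblasts and neurons of WT replicate 1 and 10.8 in neural crest and glia of WT replicate 2.

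To compare shares of positive cells across libraries of unequal depth, each cell was thinned to 5000 UMIs, which left 2734 otic cells in CD and 2517 and 3972 in WT. Gbx2 was found in 15.1% of otic cells in CD and in 12.04% and 9.37% in WT, with mesenchyme at 0.583% in CD and 0.398% and 0.464% in WT. Otx1 was found in 10.2% of otic cells in CD and in 10.6% and 9.32% in WT, and the exact 95% intervals of the 3 libraries overlapped. Otx2 was found in 4.06% of otic cells in CD (95% interval 3.35 to 4.87) and in 9.38% (8.27 to 10.6) and 9.19% (8.31 to 10.1) in WT, so that the CD interval lay below both. Gsc was found in 3.66% in CD and in 4.37% and 5.84% in WT. Intervals cover counting error only, and no test of shares was made with 1 CD library. Before thinning the shares were 7.81% in CD and 15.9% and 13.7% in WT for Otx2, and 32.0% in CD and 29.8% and 20.03% in WT for Gbx2.

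**Figure D2:**
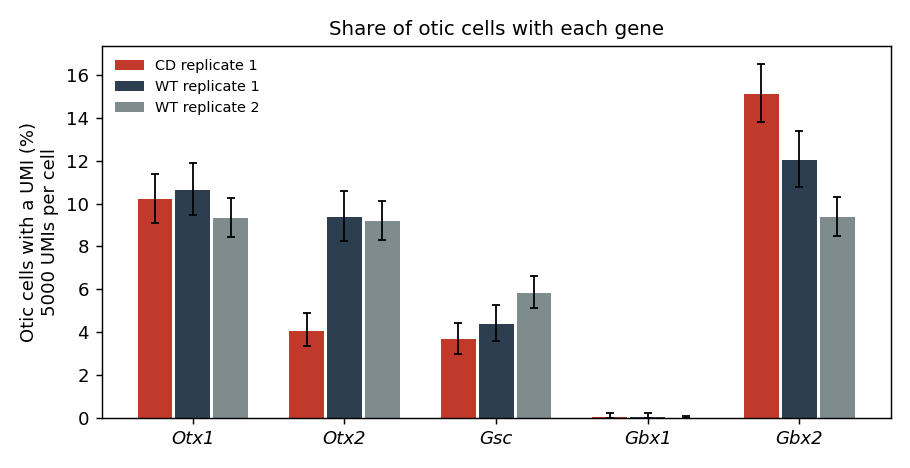
Share of otic cells with at least 1 UMI of each gene after thinning to 5000 UMIs per cell, by library, with exact 95% binomial intervals that cover counting error only. The Otx2 bar is at 4.06% in CD, against 9.38% and 9.19% in WT, while the Otx1 bars lie between 9.32% and 10.6%.

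The 4 otic genes split. Otx1, Otx2 and Gsc were found together more often than unrelated detection gives, and Gbx2 was found with them less often. The separation was not complete. Before thinning, Gbx2 was found in 13.8% of Otx1-positive otic cells in CD and in 13.1% and 7.75% in WT. Its share of all otic cells was then 32.0% in CD and 29.8% and 20.03% in WT. In thinned otic cells Otx1 and Otx2 were detected together 5.74 times as often in CD as the product of their single shares gives, and 3.90 and 4.65 times as often in WT. For Otx1 and Gsc the ratio was 5.39 in CD and 4.18 and 4.12 in WT. For Otx2 and Gsc it was 9.36 in CD and 5.82 and 5.77 in WT. All 3 pairs lay above 1 in each library. Pairs with Gbx2 lay below 1 in each: Otx1 and Gbx2 at 0.166 in CD and 0.155 and 0.231 in WT, and Otx2 and Gbx2 at 0.178 in CD and 0.211 and 0.146 in WT. Gsc and Gbx2 shared 1 thinned cell in CD and 3 and 2 cells in WT, with ratios of 0.0660 in CD and 0.227 and 0.0920 in WT that rest on these few cells.

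**Figure D3:**
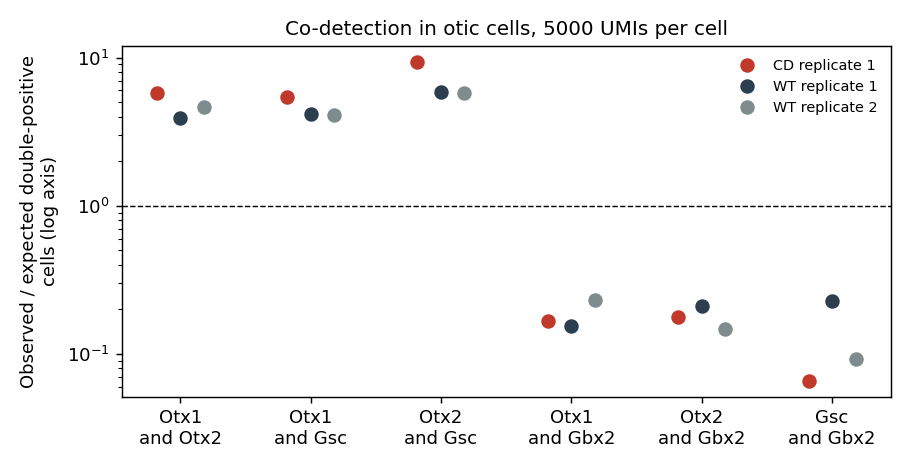
Observed over expected number of double-positive otic cells for 6 gene pairs on a log axis, 1 point per library, after thinning to 5000 UMIs per cell; the dashed line at 1 marks unrelated detection. Pairs among Otx1, Otx2 and Gsc lie between 3.90 and 9.36, and pairs with Gbx2 between 0.0660 and 0.231.

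The make-up of the Otx cells differed between the libraries. Of Otx2-positive cells, 58.6% also had Otx1 in CD, against 41.5% and 43.3% in WT. Of Otx1-positive cells, 23.3% also had Otx2 in CD, against 36.6% and 42.7% in WT. Cells with Otx2 and no Otx1 UMI made up 1.68% of otic cells in CD (exact 95% interval 1.23 to 2.24) and 5.48% (4.63 to 6.44) and 5.21% (4.54 to 5.95) in WT. Cells with Otx1 and no Otx2 UMI made up 7.83% in CD and 6.75% and 5.34% in WT. A gene with fewer UMIs is also missed in more of the cells that express it, and the part of this in the shares was not tested.

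Otic cells were then divided into Otx-only cells, with a thinned UMI of Otx1 or Otx2 and none of Gbx2, and Gbx2-only cells, with the reverse. Otx-only cells made up 11.6% of thinned otic cells in CD and 15.7% and 14.2% in WT. Gbx2-only cells made up 14.8% in CD and 11.6% and 9.09% in WT. Cells with both made up 0.329% in CD and 0.397% and 0.277% in WT, and the rest had neither at this depth.

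Called genes of the dorsal and medial wall were lower in Otx-only than in Gbx2-only cells, Emx2 excepted, and most called lateral genes were higher. The lists were chosen with earlier results of these data known, so counts of listed genes are a description only. By edgeR with library as a block, 2198 of 10722 genes (20.5%) differed, 9.47% higher and 11% lower. Gsc, the one member that the division did not use and that could be tested, had 95 UMIs in Otx-only cells of CD and 105 and 209 in those of WT, against 0 in Gbx2-only cells of CD and 1 and 2 in those of WT. Summed over libraries its level per total UMI was 113 times as high (exact 95% interval 38.4 to 550, counting error only). The log2 fold change was 6.62 (SE 0.33, edgeR adjusted p = 4.23e-21). With so few UMIs in Gbx2-only cells, Gsc passed the filter on low counts through the Otx-only cells alone. Its co-detection with Otx1, Otx2 and Gbx2 was already counted above in thinned otic cells. The p-value restates those counts and is no separate support.

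Of the 9 dorsal genes 7 could be tested, and 7 fell and 0 rose (median log2 fold change -3.21, against 0.00 over all genes tested). Wnt2b, a dorsal Wnt ligand, fell by 4.66 on the log2 scale, Bmp3, a BMP family ligand, by 4.16, Rdh10, a retinoic acid synthesis enzyme, by 3.85 and Msx2, a homeobox gene downstream of BMP signals, by 3.21. Rdh10 stood at 13.9 CPM in Otx-only and 152 in Gbx2-only cells of CD, at 15.2 and 190 in WT replicate 1, and at 20.5 and 345 in WT replicate 2. Its values did not overlap between the states. Rdh10 was named for its large change, and the share of all genes without overlap is not given here.

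Of the 7 medial genes 6 fell and 1 rose (median -1.90). Sp5 and Notum, both targets of Wnt signalling, fell by 4.58 and 4.11 on the log2 scale, Pax8, an early otic gene, by 3.63, and Axin2, another Wnt target, by 1.90. Emx2, a homeobox gene of the medial wall, rose (0.49, SE 0.17, edgeR adjusted p = 0.0332), although its CD values ran the other way, at 29.7 CPM in Otx-only and 39.0 in Gbx2-only cells. In WT replicate 1 it stood at 48.0 and 23.9, and in WT replicate 2 at 54.1 and 29.9.

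Of the 11 lateral genes 5 rose and 2 fell (median 0.57). Tbx1, a T-box gene of the lateral otocyst, rose by 2.73 on the log2 scale, Eya4, a transcriptional cofactor, by 1.64, Bmp4, a ligand of prosensory and lateral tissue, by 1.54 and Tbx3 by 1.17. Msx1 fell by 2.71 and Tbx2 by 0.23. Bmp4 was higher in 2 of 3 libraries: it stood at 57.0 CPM in Otx-only and 11.4 in Gbx2-only cells of CD, at 12.1 and 12.97 in WT replicate 1, and at 24.7 and 8.31 in WT replicate 2.

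Of the 9 genes related to SOX9 and SOX10 4 rose and 2 fell. Cnmd, a secreted cartilage protein, stood at 60.1 CPM in Otx-only and 2.96 in Gbx2-only cells of CD, at 247 and 28.0 in WT replicate 1, and at 251 and 43.2 in WT replicate 2 (log2 fold change 2.90, SE 0.13). Sox9 itself was at 819 CPM in Otx-only and 852 in Gbx2-only cells of CD, at 482 and 463 in WT replicate 1 and at 466 and 405 in WT replicate 2 (0.05, SE 0.05, edgeR adjusted p = 0.607). None of the midbrain-hindbrain partners of Otx2 and Gbx2 (Fgf8, En1, En2, Wnt1, Pax5, Lmx1b) passed the filter on low counts, and En1, En2 and Pax5 were at 0 in both states of all 3 libraries.

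**Figure D4:**
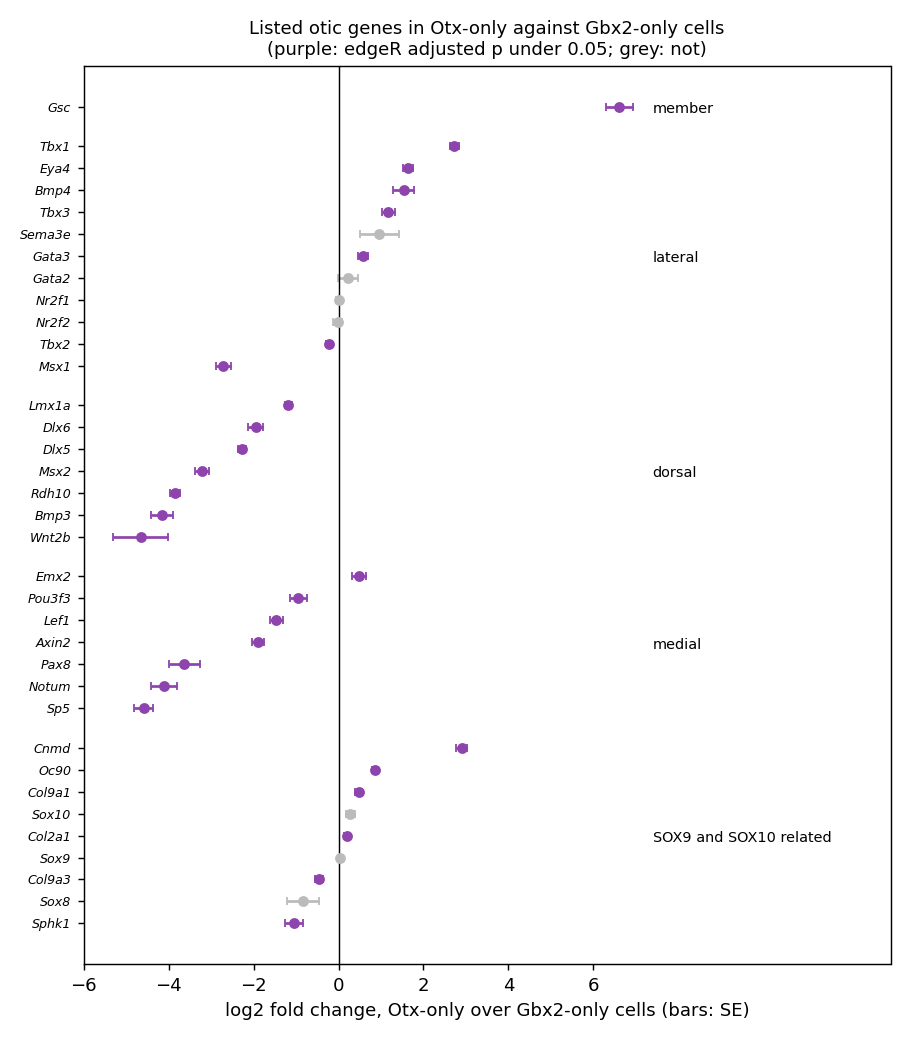
Log2 fold change of Otx-only over Gbx2-only otic cells, with SE, for Gsc and the tested genes of 4 lists, from edgeR with library as a block over 3 libraries; purple marks adjusted p under 0.05. All 7 tested dorsal genes lie below 0, Gsc is the highest at 6.62, and the medial list has Emx2 alone above 0.

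The genes whose thinned counts ran most like those of each member across otic cells were named by Pearson's r of log counts, over the 8094 or 8095 genes with a UMI in at least 5% of thinned otic cells of every library, as a description. Cells of a library share its depth and free RNA. Otx2 and Gsc lie under that limit in CD and were not ranked as partners, so their r is given apart. Otx2 and Gsc had r of 0.307 in CD and 0.335 and 0.340 in WT, Otx1 and Otx2 0.294 in CD and 0.282 and 0.340 in WT, and Otx1 and Gsc 0.269 in CD and 0.203 and 0.266 in WT. By the lowest of its 3 values, the pair Otx2 and Gsc lay above every ranked partner of Gsc and above all but Capn6 of Otx2, and the pair Otx1 and Otx2 above all but Ehbp1 of Otx1. Among the ranked genes, those most like Otx2 were Capn6, Six2, Otx1, Nnat and Krt19. Capn6 had r of 0.356 in CD and 0.420 and 0.423 in WT. Six2, a homeobox gene, had 0.284 in CD and 0.397 and 0.390 in WT. For Gsc they were Capn6, Otx1, Sulf1, Nnat and Six2. For Otx1 they were Ehbp1, Capn6, Sfrp1, Sulf1 and Cnmd. Ehbp1 (0.331 in CD, 0.299 and 0.292 in WT) lies beside Otx1 on chromosome 11, with 1 annotated gene between their start sites in GRCm38.p6. For Gbx2 they were Ptn, Elf1, Cdkn1a, Ldhb and Snx7, with Ptn, a secreted growth factor, at 0.378 in CD and 0.332 and 0.375 in WT. Ptn was also among the 3 genes with the lowest r for Otx1 and for Otx2.

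Otx2 was the member with the lowest CD level relative to WT in the vesicle. It stood at 19.97 CPM in otic cells of CD and at 36.7 and 42.2 in WT, so that CD was below both (log2 fold change -1.04, SE 0.17). The difference did not pass over all genes (edgeR adjusted p = 0.0764), where 16 of 17161 genes (0.0932%) did, 0.0175% higher and 0.0758% lower, and 700 had an unadjusted p under 0.05. The direction was the same in 11 of 11 alternatives, with values between -1.15 and -0.84, but the call was not stable. Of the 9 alternatives that give an adjusted p, 3 passed, DESeq2 (1.15e-04), edgeR without a gene filter (3.64e-05) and the leaving out of cells with ciliated-cell genes by the first of 2 lists (0.0473), and the highest was 0.202. With the second list, made after the results of the first had been seen, the adjusted p was 0.113.

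The share of positive cells differed more than the UMIs in each, a mean that cannot fall below 1. A cell with a lower level is also more often counted as negative. Whether fewer cells expressed Otx2 or each expressed less of it was therefore not tested by these values. Otx2-positive otic cells had 6.54 UMIs of Otx2 on average in CD and 6.73 and 6.71 in WT before thinning, at unequal depth. After thinning they had 1.74 in CD and 1.69 and 1.81 in WT. Among Otx1-positive cells alone the means before thinning were 6.87 in CD and 7.44 and 7.81 in WT, at unequal depth. The Otx2 UMIs per Otx1 UMI were 0.565 in CD and 1.09 and 1.44 in WT. Otx1 itself, found with Otx2 more often than unrelated detection gives, was at 35.4 CPM in CD and at 33.8 and 29.4 in WT (0.11, SE 0.16, edgeR adjusted p = 0.9997).

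The other members did not pass. Gsc, at 10.3 CPM in CD and at 15.2 and 17.1 in WT, differed by -0.70 on the log2 scale (SE 0.20, edgeR adjusted p = 0.491). Gbx2, at 46.7 in CD and at 35.3 and 25.4 in WT, had 0.57 (SE 0.19, edgeR adjusted p = 0.800), and the WT libraries differed from each other by nearly as much as CD from the nearer one. Gbx1 had 0.44 (SE 0.95) on 10 UMIs in CD and 10 and 6 in WT, so that no difference was detectable at this depth. Thus 0 of 5 members were called, where 0.0932% of 17161 genes were, and at that share the count is no result about the members.

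Otic cells with at least 1 Tbx1 UMI, a set chosen without any member, numbered 1570 of 2778 in CD and 1539 of 2537 and 2422 of 4083 in WT. This is most of the otic cells and not the lateral wall alone. Gbx2 was found in 18.9% of them in CD and in 19.3% and 12.4% in WT. Within this set Otx2 was lower in CD and passed. It stood at 31.4 CPM in CD and at 52.7 and 60.3 in WT (-0.90 on the log2 scale, SE 0.17, edgeR adjusted p = 0.0433), in a comparison where 46 of 16382 genes (0.281%) passed, 0.104% higher and 0.177% lower. Of these cells 13.1% were Otx2-positive in CD and 24.0% and 20.1% in WT. The call was lost with Scrublet doublets left out (adjusted p = 0.310), with the otic gate at 4 UMIs (0.207), with ciliated-cell genes left out by the first list (0.0730) and with the wider otic gate under either list (0.0969 and 0.123). It held under 4 of 9 alternatives, the second list among them (0.0401), at values between -1.004 and -0.80 over all 11.

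Inside Otx1-positive otic cells Otx2 stood at 79.6 CPM in CD and at 113 and 149 in WT (-0.79, SE 0.18, edgeR adjusted p = 0.245, with 0.208% of 14909 genes called, 0.101% higher and 0.107% lower). Of these cells 35.9% had Otx2 in CD (exact 95% interval 31.9 to 40.0), against 56.0% (51.9 to 60.1) and 54.2% (50.7 to 57.7) in WT. It passed under DESeq2 (0.0449) and with ciliated-cell genes left out by the first list (0.00732), and not under the second list (0.249). In Gbx2-positive otic cells Otx2 was low throughout, at 9.06 CPM in CD and 12.3 and 8.33 in WT (-0.24, SE 0.28, edgeR adjusted p = 0.9999, with 0.181% of 15462 genes called, 0.0194% higher and 0.162% lower), and CD lay between the WT libraries. Whether the Otx2 difference differs between these sets was not tested.

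**Figure D5:**
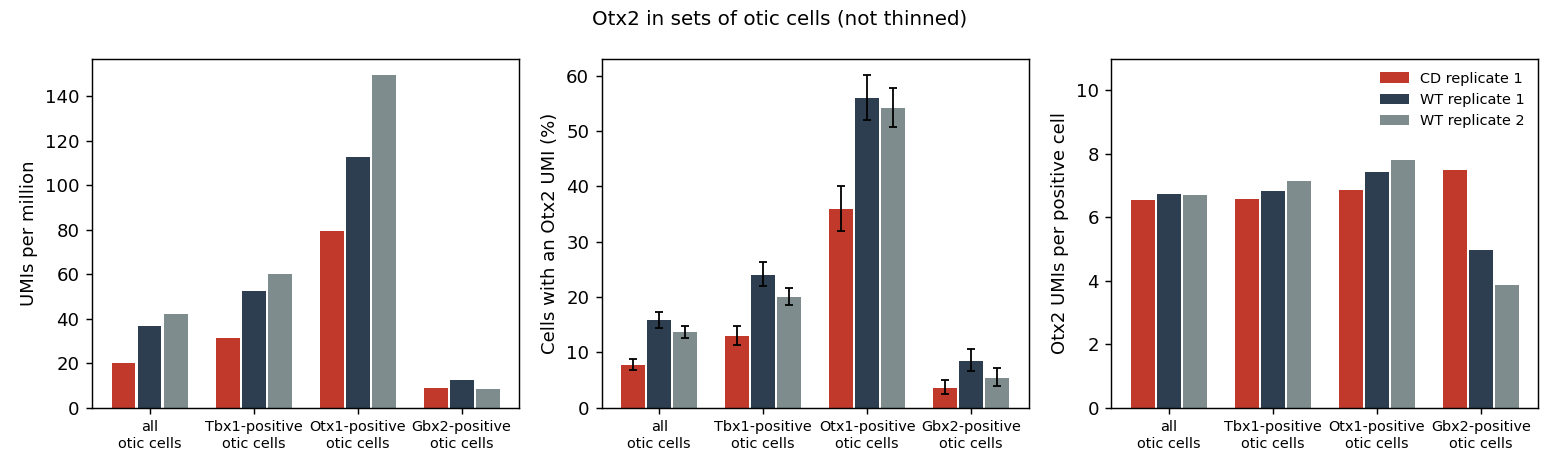
Otx2 in 4 sets of otic cells by library, not thinned: CPM, share of cells with a UMI (with exact 95% intervals, counting error only) and mean UMIs per positive cell. CD is below both WT libraries in level and share in all otic, Tbx1-positive and Otx1-positive cells, while UMIs per positive cell in all otic cells are 6.54 in CD and 6.73 and 6.71 in WT.

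Between CD and WT in otic cells as a whole, where 0.0932% of genes passed, 0 genes of the lateral, dorsal, medial and neurogenic lists did, which is no result about these lists at that share, and of the list related to SOX9 and SOX10 2 fell, Oc90 and Cnmd, and 0 rose. Oc90 stood at 81.1 CPM in CD and at 527 and 981 in WT (-3.27 on the log2 scale, SE 0.34, edgeR adjusted p = 0.00845). Cnmd, among the genes most like Otx1, stood at 15.9 in CD and at 91.1 and 96.6 in WT (-2.62, SE 0.17, edgeR adjusted p = 5.06e-04). Its fall was not particular to Otx1-positive cells, where the log2 fold change was -2.22 (SE 0.15). In Gbx2-positive cells Cnmd stood at 5.89 CPM in CD and at 44.3 and 49.4 in WT (-3.04, SE 0.21, edgeR adjusted p = 1.28e-04). Within Otx1-positive cells Bmp4 rose, at 64.8 CPM in CD and 20.5 and 25.4 in WT (1.43, SE 0.17, edgeR adjusted p = 0.00970), the one lateral gene of 11 to pass there, where 0.101% of all genes were called higher. The rise was not particular to these cells. In Tbx1-positive cells Bmp4 also passed, at 103 CPM in CD and 49.4 and 56.0 in WT (0.91, SE 0.15, edgeR adjusted p = 0.0287). It was higher in CD, without passing, in all otic cells (67.0 CPM against 35.3 and 40.8 in WT). The same held in Gbx2-positive cells (25.4 against 19.8 and 14.8). With Scrublet doublets left out 0 genes were called higher in Otx1-positive or in Tbx1-positive cells, Bmp4 included.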

How the data were processed

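Single-cell libraries of otic vesicles at embryonic day 10.5 were made with a droplet-based 3' kit, per the labels' protocols. The authors deposited raw UMI counts (whole numbers, not normalized) for every gene in every barcode, and per the submitters' processing notes used Cell Ranger 6.0 and build mm39. The 5 members and the gene lists were chosen with earlier results of these data known. Barcodes needed at least 1000 genes and no more than 10% mitochondrial UMIs. CPM values are UMIs per 1000000 UMIs of a cell set and were used for description only. Counts were summed per library and cell set and tested with edgeR 4.0.16 (quasi-likelihood, TMM, filterByExpr, Benjamini-Hochberg over all genes tested, threshold 0.05), with DESeq2 1.42.0 as an alternative. Cells are not replicates. The CD against WT tests rest on 1 residual degree of freedom and on variance shared across genes. The tests of otic against mesenchyme and of the states rest on 2 and on the same sharing. For the states the sharing counted as a median of 41.0 further degrees of freedom, so their p-values come mostly from it. Genes that define a cell set left its test. Shares and co-detection used cells thinned to 5000 UMIs (10000 as an alternative), with exact Clopper-Pearson 95% intervals. Scrublet (scanpy 1.11.5) called 3.29% of kept cells doublets in CD and 2.80% and 3.39% in WT. They stayed in and were left out as an alternative. Libraries shared between 28 and 55 barcodes. The tests were checked on simulated data. Named genes were the members and, of each list, up to 4 past the threshold in each direction with the largest change. The neurogenic list's result between the Otx-only and Gbx2-only states is not reported here.

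Leaving out cells with ciliated-cell genes, and a wider otic gate (Epcam-positive cells of the otic class or of no class), were added after seeing the data. The first list of ciliated-cell genes was Foxj1, Gmnc, Dynlrb2 and Colec12, at 3 UMIs or more. After its results were seen, Colec12 was replaced with Deup1, because Colec12 alone put 480 of the 1860 CD mesenchyme cells past the limit. The lists give different calls for Otx2, and results under both are given. Homeobox bases were read from GENCODE M21 transcripts and no coordinates are given, since the reference build differs from mm39.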

Additional observations from a re-analysis of the deposited data

How the results depend on the processing

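No paired analysis was possible for CD against WT because CD is 1 library and the labels record no pairing between the groups. Otic against mesenchyme kept all 5 calls under 11 of 11 alternatives, among them the fit without the replicate block. Gsc kept its call between the states under 13 of 13, a call that restates its co-detection and is no separate support. Otx2 kept its direction in otic, Tbx1-positive and Otx1-positive cells under all 11 alternatives, while its call depended on the setting. With cells with ciliated-cell genes left out, the Otx2 adjusted p in otic, Otx1-positive and Tbx1-positive cells was 0.0473, 0.00732 and 0.0730 by the first list (with Colec12), and 0.113, 0.249 and 0.0401 by the second (with Deup1). The second list was made after the first had been run, so neither call is independent of that choice. Leaving out 1 WT library leaves no residual degrees of freedom and gives a value with no test: the Otx2 log2 fold change was then -1.15 to -0.93 in otic cells.

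The 16 genes called between CD and WT in otic cells became 61 under DESeq2, 155 without a gene filter, 6 without doublets, 4 without cells under 5000 UMIs, 56 with the otic gate at 4, 8 by the Deup1 list, and 9 and 8 with the wide gate (Colec12 and Deup1 list). In Otx1-positive cells 31 became 1 without doublets, 19 without shallow cells, 4 with the gate at 4, 113 by the Colec12 list, and 18 and 16 with the wide gate. In Tbx1-positive cells 46 became 189 without a filter, 1 without doublets, 7 with the gate at 4, 20 by the Colec12 list, and 19 and 15 with the wide gate. In Gbx2-positive cells 28 became 137 without a filter, 8 without doublets and 8 with the wide gate (Colec12 list). Between the states 2198 became 753 under DESeq2, 1434 with the gate at 4, 1140 with at least 2 UMIs for a state, and 1085 with no replicate block. The cause of these shifts was not tested.

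Values that changed sign were all near 0: Gbx1 in otic cells (-0.00503 and -0.0184 with the wide gate, Colec12 and Deup1 list), Gsc in Gbx2-positive cells (0.0152 without doublets, 0.114 with the gate at 4, 0.0175 by the Colec12 list, and -0.200 to 0.187 over the leaving out of each WT library), and Otx2 there (-0.492 to 0.0647 over the leaving out of each WT library). The CD share of Otx2-positive cells over the WT mean was 0.528 unthinned, 0.501 at 10000 UMIs and 0.465 with the gate at 4, and that of Otx1 was 0.923 unthinned and 1.17 with the gate at 4. Mean co-detection ratios moved for Otx1 and Gbx2 (0.225 with the gate at 4), for Otx2 and Gbx2 (0.258 at 10000 UMIs, 0.236 with the gate at 4, 0.123 with the wide gate by the Colec12 list) and for Gsc and Gbx2 (0.217 at 10000 UMIs), and stayed below 1.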

Other observations

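Otx2 also marked cells outside the otic gate. Of cells with 5 or more Otx2 UMIs, 112 of 158 in CD were otic, against 203 of 323 and 296 of 370 in WT. A first group outside the gate was Epcam-positive and without ciliated-cell genes by the Deup1 list, with 38 cells in CD and 49 and 65 in WT. Its cells had Otx1 at 189 CPM in CD and 105 and 131 in WT, Gsc at 75.3 in CD and 76.2 and 86.4 in WT, and Tbx1 at 141 in CD and 128 and 91.9 in WT. The gate gene Pax2 was at 10.9 in CD and 12.4 and 11.002 in WT, against 89.6 in CD and 94.1 and 92.4 in WT for Otx2-high cells inside the gate. That Pax2 gap follows from the gate, which counts Pax2, and is no evidence about these cells. By Epcam and Otx2 alone, part of the Otx2-positive epithelium lay outside the gate.

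A second group outside the gate had ciliated-cell genes and lay mostly in WT replicate 1, where 51 such cells had Otx2 at 405 CPM, Foxj1, a regulator of motile cilia, at 471, and Ttr, known from the choroid plexus, at 10998, with Otx1 at 6.42 and Gsc at 0.713. The group is given no cell type here. Of all kept Otx2-high cells, those with these genes numbered 3 in CD and 57 and 2 in WT by the Deup1 list, and 11 in CD and 77 and 10 in WT by the Colec12 list. Without cells on these lists the Otx2 difference between otic and mesenchyme was 4.55 (Deup1 list) and 5.22 (Colec12 list) on the log2 scale, against 3.74 with them.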
